A study of Mus musculus with 6 samples.

Results

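The genes described here are 10 genes of matrix proteolysis, matched by their symbols among the 15803 genes of the expression table: the proteases Mmp2, Mmp3, Mmp9, Mmp13, Mmp14 and Mmp16 and the inhibitors Timp1, Timp2, Timp3 and Reck. All 10 were listed, and all 10 passed the filter of a mean of at least 1 CPM (reads on a gene per 1000000 reads on all listed genes) over the libraries, as did 12155 genes in all. RNA came from growth plate cartilage of mouse embryos at E18.5. The 3 WT libraries were from Hnrnpk fl/fl embryos. The 3 CKO libraries carried Col2a1-Cre;Hnrnpk fl/fl, where Cre under the collagen II promoter of chondrocytes removes the floxed exons of Hnrnpk, a gene for an RNA-binding protein. Both groups thus carried the floxed alleles and differed in Cre, and no Cre control without floxed alleles was among them. The sources do not say whether a library held 1 embryo or several, so the p-values measure the spread between these libraries.

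Matrix metalloproteinases (MMPs) are zinc-dependent enzymes that cut collagens, proteoglycans and other matrix proteins and are made as inactive precursors. Tissue inhibitors of metalloproteinases (TIMPs) are small secreted proteins that block the active site of MMPs, and Reck is a membrane-anchored inhibitor of several of them. In the growth plate, Mmp13 is the collagenase of late hypertrophic chondrocytes and osteoblasts, Mmp9 is made mainly by osteoclasts and related cells at the vascular front, and Mmp14 sits on the cell surface and activates the precursor of Mmp2 in a complex with Timp2.

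Mmp13 and Mmp3 lie in the same cluster of MMP genes on chromosome 9 and behaved differently in the libraries, so the sequences before their starts are shown together with that of Timp1, the member with the smallest p. In the GENCODE annotation of GRCm38 the cluster holds 10 MMP genes, of which Mmp13 (7272514 to 7283331) is the first and Mmp3 (7445822 to 7455975) the fourth, both on the plus strand with starts 173 kb apart. RefSeq promoters of GRCm38.p6, each running from 250 bases before to 50 after the start, were found for 7 of the 10 members and not for Mmp2, Mmp9 and Mmp16. The 150 bases before each start are given 5′ to 3′, all on the plus strand. Capitals mark the AP-1 word (TGAGTCA or its reverse complement TGACTCA) and the TATA word (TATAAA or TTTATA) in Mmp13 and Mmp3, and the hypoxia response core (ACGTG or GCGTG, or CACGT or CACGC on the other strand) and the GC box (GGGCGG or CCGCCC) in Timp1.
Mmp13 (chr9:7272364-7272513): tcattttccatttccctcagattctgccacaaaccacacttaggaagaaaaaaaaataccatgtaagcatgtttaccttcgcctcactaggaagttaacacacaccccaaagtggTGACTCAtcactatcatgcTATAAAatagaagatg
Mmp3 (chr9:7445672-7445821): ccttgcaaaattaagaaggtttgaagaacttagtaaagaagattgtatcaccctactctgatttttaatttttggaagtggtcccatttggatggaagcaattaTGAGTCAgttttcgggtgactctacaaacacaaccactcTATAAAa
Timp1 (chrX:20870016-20870165): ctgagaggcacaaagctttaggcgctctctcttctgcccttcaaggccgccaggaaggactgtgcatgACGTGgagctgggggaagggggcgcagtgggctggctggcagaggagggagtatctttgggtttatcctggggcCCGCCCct

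The AP-1 word stood at -35 in Mmp13 and at -46 in Mmp3 and in none of the other 5 matched members, against 5.2% of 32851 promoters of 27025 genes. The TATA word stood at -16 in Mmp13 and at -7 in Mmp3, against 13.6% of promoters. Timp1 held the hypoxia response core at -206 and -82 and the GC box at -8, words found in 43.8% and 35.7% of promoters. Timp2, Timp3 and Mmp14 also held both of these words, and Reck held the GC box at -92, -55 and -4. These are matches of letters in a fixed window and do not show binding by any factor.

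The recovered reads per library ranged from 1153871 to 1454094, so that 1 read was worth 0.688 to 0.867 CPM. Reads of the whole Hnrnpk gene did not separate the genotypes, at 842, 955 and 944 CPM in WT and 759, 949.9 and 780.0 CPM in CKO, so every direction given here rests on the labels. All 7 chondrocyte markers were listed, summing to 13601 to 17817 CPM in WT and 3527 to 4168 CPM in CKO, and 5 were called lower, where 2.6% of all genes tested were. CKO 2 and WT 3 stood apart from the libraries of their own genotype. Of 6827 genes whose mean reached 10 CPM, 4.78% lay more than 2-fold below both other CKO libraries in CKO 2 and 4.78% more than 2-fold above, and 3.65% lay more than 2-fold above both other WT libraries in WT 3. The labels give no sex. Reads of 4 Y-linked genes summed to 1 in WT 1 and 0 in CKO 2 and to between 120 and 170 in the other libraries, so that within CKO the absence of Y-linked reads and whatever else sets CKO 2 apart cannot be told apart.

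Of the 10 genes, 2 inhibitors were higher in CKO embryos past the adjusted threshold (adjusted p under 0.05, Benjamini-Hochberg over all genes tested with limma), Timp1 and Timp3. None was lower past it, with 1 of the 10 lower at an unadjusted p under 0.05 (Mmp2), and neither edgeR nor DESeq2, which both gave Mmp9 no adjusted p, called a lower member. Among all genes tested 5.78% were called, 3.18% higher and 2.6% lower. The members were chosen with earlier results of these data known, so their counts are a description and not a test. By the criterion in the methods of the study, a fold change above 2 with an unadjusted p under 0.05, 3 members were higher (Timp1, Timp3 and Mmp13) and 0 lower, where 10.4% of all genes passed, 5.3% higher and 5.1% lower. The median log2 fold change of the 10 genes was 0.60, against 0.013 over all genes tested. It lies between Mmp16 at 0.53 and Mmp9 at 0.67. Mmp9 was near the floor and reached the filter only through CKO (mean 1.63 CPM, against 0.563 CPM in WT). The libraries of the genotypes did not overlap in 5 members, 4 higher and 1 lower, against 27.7% of all genes, 14.5% higher and 13.2% lower. For each of these 5 an exact two-sided permutation test of CPM gave p = 0.1, the smallest that 3 libraries against 3 allow. In bulk cartilage, more cells that make an mRNA and more mRNA per cell cannot be told apart. Without CKO 2 the number called higher was 3, with Mmp13 added. Without any other single library it was 1, Timp1 alone. In the libraries with Y-linked reads alone, WT 2 and 3 against CKO 1 and 3, a choice made after seeing the data, the number was 3.

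**Figure D1:**
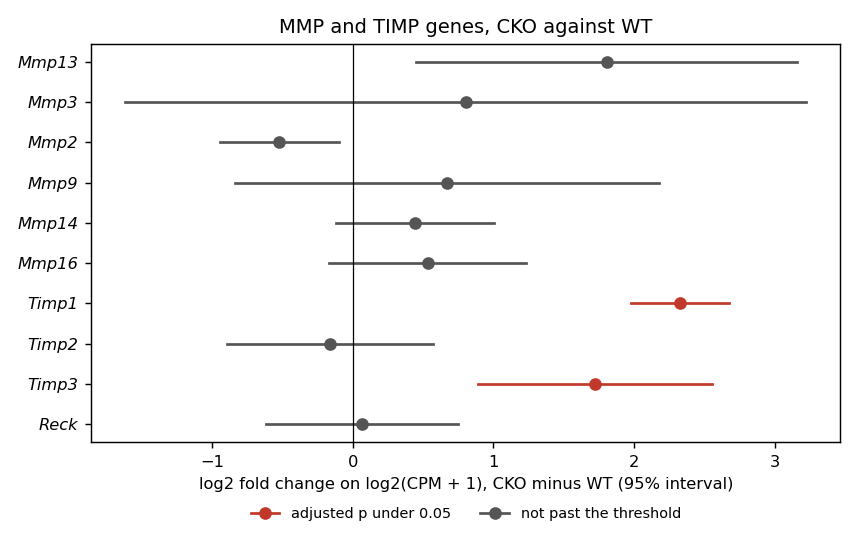
Log2 fold change of each gene on log2(CPM + 1), CKO minus WT (horizontal axis), with its 95% interval from limma as a line. Red marks adjusted p under 0.05, which Timp1 at 2.33 and Timp3 at 1.72 passed; the interval of Mmp13 spans 0.45 to 3.16 and that of Mmp3 spans -1.62 to 3.23.

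On a scale of CPM per kb of exon, Timp1 was the most abundant of the 10 in WT (385 ± 70.1, SD, n = 3), followed by Mmp13 (146 ± 84.6) and Mmp2 (61.1 ± 8.31). Timp3 (17.5 ± 2.73) and Timp2 (16.8 ± 1.55) came next and overlapped between libraries, and so did Mmp3 (12.9 ± 18.1) with both. Reck (4.33 ± 1.14) and Mmp14 (3.09 ± 0.639) overlapped as well, and Mmp16 (0.949 ± 0.0276) and Mmp9 (0.159 ± 0.276) were lowest. In CKO the order of the means differed in 2 places. Timp3 (65.1 ± 33.1) stood above Mmp2 (42.7 ± 7.90), though the CKO 2 value of Timp3, 26.9, lay below every CKO value of Mmp2. Mmp3 (23.7 ± 32.6) stood above Timp2 (16.3 ± 7.28), with overlapping libraries.

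Mmp13 (ENSMUSG00000050578), the collagenase that cuts fibrillar collagens II and I, was at 257, 260.4 and 650.5 CPM in WT 1, 2 and 3, against 2155, 377 and 2301 CPM in CKO 1, 2 and 3. CKO 1 and CKO 3 lay far above every WT library, while CKO 2 lay between WT 2 and WT 3, so the groups overlapped. The ratio of the means was 4.14, and the log2 fold change of 1.81 (95% interval 0.45 to 3.16) had limma's unadjusted p = 0.0139 and adjusted p = 0.118. CKO 2 stood at 16.9% of the mean of CKO 1 and CKO 3, and WT 3 at 251% of the mean of WT 1 and WT 2. Without CKO 2 the log2 fold change was 2.66 (limma's adjusted p = 9.29e-04), and among the libraries with Y-linked reads it was 2.43 (limma's adjusted p = 0.00765). Leaving out any other CKO or WT library gave no call. The log2 fold change was 1.40 without CKO 1 (limma's adjusted p = 0.308), 1.36 without CKO 3 (0.325), 1.58 without WT 1 (0.324), 1.59 without WT 2 (0.311) and 2.25 without WT 3 (0.0891), and the unadjusted p was also above 0.05 in all of these but the last. With a term for Y-linked reads, chosen after seeing the data, the fold change was the same by construction and limma's adjusted p was 0.0329. In WT the library with 1 Y-linked read, WT 1, was at 257 CPM, with WT 2 at 260.4 CPM and WT 3 at 650.5 CPM. The part of sex in the Mmp13 values was not tested.

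Some osteoblast markers were low in CKO 2 as Mmp13 was, and others were not. The 7 genes, all listed, summed to 458, 522 and 693 CPM in WT 1, 2 and 3 and to 1276, 367 and 1369 CPM in CKO 1, 2 and 3, with 2 of them, Ifitm5 and Dmp1, at 3 reads or fewer in every library. Ibsp, the bone sialoprotein gene, had 178, 110 and 129 reads in WT and 1030, 115 and 932 reads in CKO, and Bglap2, an osteocalcin gene, had 70, 92 and 36 against 421, 49 and 297. Bglap, its neighbour of nearly the same sequence, had 8, 9 and 7 against 39, 4 and 33, and reads of these related genes are uncertain. Ibsp, Bglap2 and Bglap were thus all low in CKO 2 and carried the change of the sum. Col1a1, the collagen I gene, was level within CKO, at 244.8, 240.4 and 269 CPM, and below the WT values of 269.6, 359 and 541 CPM. Sp7, an osteoblast transcription factor gene, had 3, 4 and 4 reads in WT and 6, 6 and 5 in CKO. The hypertrophic markers were as mixed. Col10a1, the collagen X gene, had 18, 21 and 52 reads in WT and 36, 63 and 19 in CKO, highest in CKO 2. Alpl, the alkaline phosphatase gene, had 41, 32 and 20 against 58, 12 and 44, and Pth1r, a parathyroid hormone receptor gene, had 81, 69 and 66 against 57, 28 and 35, both lowest in CKO 2. Spp1 was level within CKO, Runx2 had 5 reads or fewer and Ihh 2 or fewer in every library. The part of these cell types in the Mmp13 result was not tested.

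Mmp3 (ENSMUSG00000043613), stromelysin 1, which degrades proteoglycans and activates other MMP precursors, did not follow genotype. It was at 3.62, 5.25 and 60.8 CPM in WT 1, 2 and 3, against 5.50, 110.4 and 12.1 CPM in CKO 1, 2 and 3. WT 3 and CKO 2 were high, at 1370% and 1252% of the mean of the other libraries of the same genotype, and the other 4 libraries ranged from 5 to 14 reads. The log2 fold change was 0.80 with an interval of -1.62 to 3.23 (limma's adjusted p = 0.724), and it was -0.39 without CKO 2 (limma's adjusted p = 0.831) and 1.98 without WT 3 (limma's adjusted p = 0.295). Mmp13 and Mmp3 thus differed in CKO 2, where Mmp13 was the lowest and Mmp3 the highest of the 3 CKO libraries, while both were the highest of the WT libraries in WT 3. The endothelial list, with 5 of its 6 markers listed and each at 3 reads or fewer in every library, summed to 4.22 CPM in WT 3 and 4.33 CPM in CKO 2 and to between 0.688 and 1.73 CPM in the other libraries, and its part in the Mmp3 values was not tested. The chondrocyte and neutrophil lists, and by little in WT the osteoclast list, were also highest in WT 3 and CKO 2 within their genotypes. The skeletal muscle, fibroblast and osteoblast lists were highest in WT 3 of the WT libraries but lowest in CKO 2 of the CKO libraries. Skeletal muscle summed to 63.8, 39.0 and 165 CPM in WT and 90.8, 75.8 and 92.7 CPM in CKO. Of 8 macrophage markers, 4 of low level were high in the same libraries as Mmp3. Adgre1 had 1, 3 and 5 reads in WT and 1, 12 and 3 in CKO, Csf1r had 0, 0 and 5 against 3, 10 and 4, C1qb had 2, 0 and 6 against 2, 12 and 4, and C1qc had 2, 0 and 3 against 5, 10 and 2, each highest in WT 3 and in CKO 2 within its genotype. C1qa and Mrc1 had 2 reads or fewer in every library. The sum of all 8 markers, 65.2, 63.8 and 302 CPM in WT and 196, 185 and 204 CPM in CKO, was mostly Lyz2 and Cd68. Both were highest in WT 3 of the WT libraries but lowest in CKO 2 of the CKO libraries. Lyz2 had 51.5, 54.8 and 270 CPM in WT and 110.7, 104.7 and 115.3 CPM in CKO. Cd68 had 8.70, 6.75 and 11.8 CPM against 76.3, 46.9 and 76.3 CPM. Cd68 was the only macrophage marker called, higher in CKO (log2 fold change 2.74, limma's adjusted p = 0.00114), where 3.18% of all genes tested were called higher. The part of macrophages in the Mmp3 values was not tested.

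**Figure D2:**
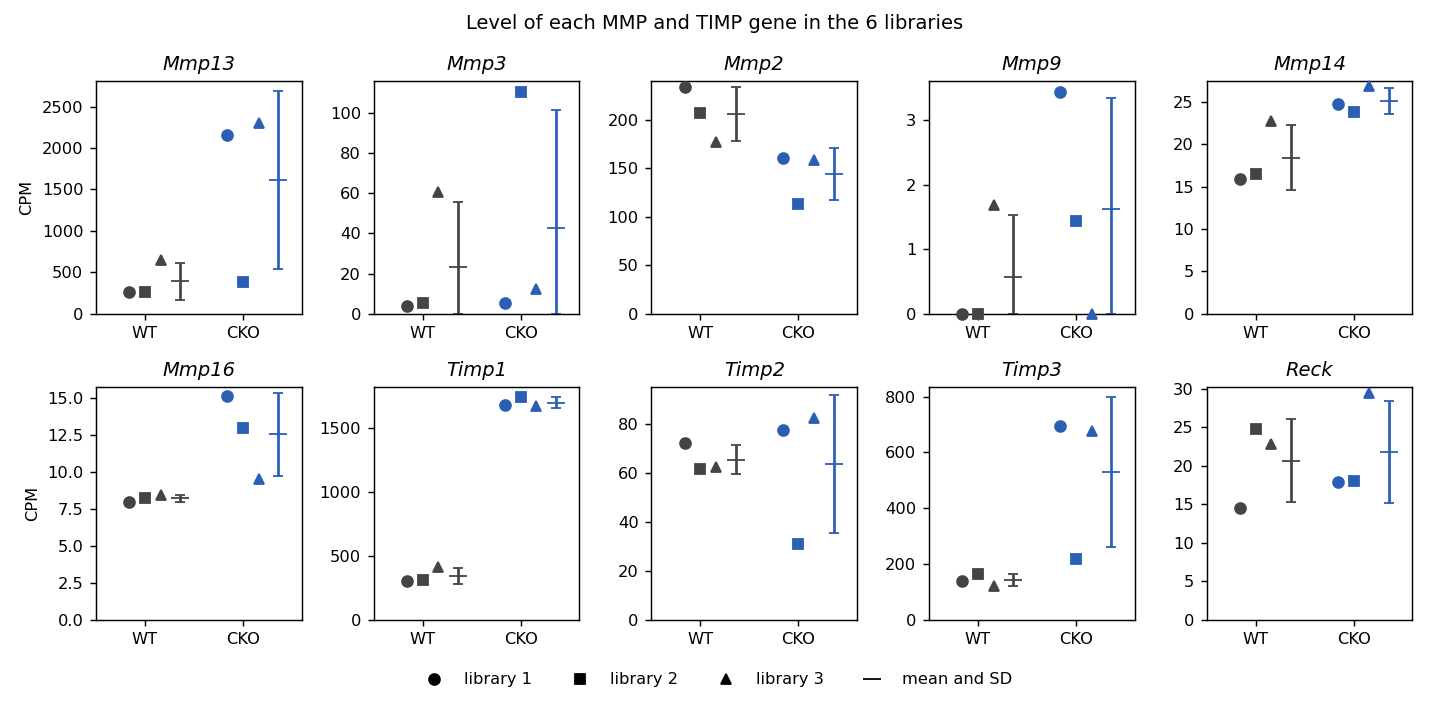
CPM (vertical axes, each from 0) of the 10 genes in WT and CKO libraries, with symbols for libraries 1, 2 and 3 and the mean and SD beside them, the SD bar ending at 0 where it would pass it. Timp1 shows 2 tight and separate groups, Mmp13 and Timp3 have CKO 2 (square) near the WT libraries, and Mmp3 is high in WT 3 and CKO 2.

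The gelatinases Mmp2 and Mmp9 cut denatured collagen and basement membrane. Mmp2 (ENSMUSG00000031740, chromosome 8, 92827291 to 92853420) was the only member whose CKO libraries all lay below WT, at 233, 207 and 177 CPM in WT and 160.2, 113 and 159 CPM in CKO. The difference was modest, a ratio of means of 0.699 and a log2 fold change of -0.52 (95% interval -0.94 to -0.10), and missed the adjusted threshold (limma's adjusted p = 0.146). Its adjusted p stayed between 0.0959 and 0.377 over 14 alternative fits, and its direction was the same in each. Mmp9 (ENSMUSG00000017737) was near the floor of detection, with 0, 0 and 2 reads in WT and 5, 2 and 0 reads in CKO, and no difference was detectable at this depth. The osteoclast list was likewise thin. Of its 8 markers 5 were listed, Calcr, Ocstamp and Dcstamp were not, and Oscar and Tnfrsf11a had at most 1 read in any library. Ctsk, a collagen-degrading protease gene of osteoclasts that other skeletal cells also express, had 97 to 127 reads in WT and 117 to 149 in CKO, and Acp5, the gene of tartrate-resistant acid phosphatase, had 3, 1 and 11 against 18, 11 and 11.

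Of the membrane-type enzymes, Mmp14 (ENSMUSG00000000957), the main cell-surface collagenase and activator of Mmp2, had 15.9, 16.5 and 22.8 CPM in WT and 24.8, 23.8 and 26.9 CPM in CKO. Every CKO library was above every WT library, by a narrow margin, and the log2 fold change of 0.44 (SE 0.25) did not pass the threshold (limma's adjusted p = 0.342). Mmp16, a related membrane-type enzyme of cartilage, had 7.97, 8.25 and 8.45 CPM in WT and 15.1, 13.0 and 9.53 CPM in CKO, again without overlap, with a log2 fold change of 0.53 (95% interval -0.16 to 1.23, limma's adjusted p = 0.361). These values rest on 10 to 36 reads per library, and differences of this size were not detectable at this depth.

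Timp1 (ENSMUSG00000001131), an inhibitor of most soluble MMPs, was at 300.1, 311 and 413 CPM in WT, against 1681, 1746 and 1670.0 CPM in CKO. The CKO libraries lay close together and far above WT, and CKO 2 stood at 104% of the mean of CKO 1 and CKO 3. The mean rose 4.98-fold, and the log2 fold change was 2.33 (95% interval 1.98 to 2.68, limma's adjusted p = 8.23e-05). Leaving out single libraries gave values from 2.24 to 2.47, and it passed the adjusted threshold in 14 of 14 alternative fits. Timp1 is on chromosome X (20870166 to 20874735). The 2 libraries with at most 1 Y-linked read were WT 1, at 300.1 CPM, and CKO 2, at 1746 CPM. The part of sex in the Timp1 values was not tested. Among libraries with Y-linked reads the log2 fold change was 2.22 (limma's adjusted p = 3.50e-04). Of the 6 hypertrophic markers, only Spp1, the osteopontin gene that osteoblasts and macrophages also express, moved with Timp1, at 1037, 1095 and 3769 CPM in WT against 11114, 11877 and 12045 CPM in CKO, and it made up nearly the whole sum of the list. Col10a1, Alpl, Runx2 and Ihh overlapped between genotypes, and Pth1r was lower in each CKO library, at 58.7, 51.8 and 55.8 CPM in WT against 39.2, 20.2 and 30.3 CPM. The part of these cells in the Timp1 result was not tested.

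Timp3 (ENSMUSG00000020044, chromosome 10, 86300372 to 86349506), a TIMP that binds to the matrix and also blocks ADAM and ADAMTS proteases, was at 139.9, 166 and 122 CPM in WT, against 695, 219 and 676 CPM in CKO. No CKO library overlapped WT, but CKO 2 was at 32.0% of the mean of CKO 1 and CKO 3 and only a little above WT 2. The log2 fold change was 1.72 (95% interval 0.89 to 2.56, limma's adjusted p = 0.0262). It was 2.27 without CKO 2 (limma's adjusted p = 1.82e-05), and the call was lost without WT 1, WT 2, WT 3, CKO 1 or CKO 3, with limma's adjusted p of 0.112, 0.0863, 0.0709, 0.0988 and 0.112 and log2 fold changes from 1.44 to 1.84. The fibroblast list, with all 6 markers listed, was lowest in CKO 2 as well, at 1439 CPM against 2829.9 and 2780.2 CPM in CKO 1 and 3 and 3707 to 5899 CPM in WT. Of its genes 2, Col1a2 and Dcn, were called lower, where 2.6% of all genes tested were. Col1a2, Col3a1, Dcn, Lum and Pdgfra were lowest in CKO 2 of the CKO libraries, as Timp3 was, while Postn was highest there, with 42 reads against 17 and 7. The osteoblast list was also lowest in CKO 2, at 367 CPM, below the WT range of 458 to 693 CPM. In CKO 1 and 3 it lay above WT, at 1276 and 1369 CPM, while the fibroblast list lay below WT in every CKO library. The part of these cell types in the Timp3 result was not tested.

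Timp1 and Timp3 each lie inside a synapsin gene on the opposite strand, Timp1 within Syn1 and Timp3 within Syn3. The exons of Timp3 overlap those of Syn3 and those of Timp1 do not overlap Syn1. The synapsin genes were nearly silent, with 10 reads for Syn1, 8 of them in CKO 2, and 8 for Syn3 in all libraries together, and no member had a near-identical copy of at least 300 bases at 90% identity among the annotated transcripts.

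Timp2 (ENSMUSG00000017466), the inhibitor that also docks the Mmp2 precursor on Mmp14, had 72.5, 61.5 and 62.5 CPM in WT and 77.7, 31.0 and 82.3 CPM in CKO. CKO 2 fell below every other library and CKO 1 and 3 lay above WT, so that the log2 fold change was -0.16 with all libraries (95% interval -0.89 to 0.57, limma's adjusted p = 0.827) and 0.29 without CKO 2 (limma's adjusted p = 0.330). Reck had 14.5, 24.8 and 22.8 CPM in WT and 17.9, 18.0 and 29.5 CPM in CKO. Its log2 fold change was 0.07 (95% interval -0.61 to 0.75, limma's adjusted p = 0.927). Of the 4 inhibitors, Timp1 and Timp3 thus passed the threshold and Timp2 and Reck did not. Timp3 reads were 1.93, 2.70 and 1.95 times those of Timp2 in WT 1, 2 and 3. They were 8.95, 7.07 and 8.21 times those of Timp2 in CKO 1, 2 and 3. This ratio, which was not planned, did not overlap between genotypes. In CKO 2, Timp3 stood at 32.0% and Timp2 at 38.8% of the mean of CKO 1 and CKO 3. That CKO 2 stood near the other CKO libraries in the ratio follows from both genes being low there.

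Summed over the 6 proteases, the level was 518, 498 and 922 CPM in WT and 2364, 639 and 2508 CPM in CKO, and Mmp13 made up 49.7% to 70.6% of the sum in WT and 91.2%, 59.0% and 91.7% in CKO 1, 2 and 3. Summed over the 4 inhibitors, it was 527, 564 and 620.1 CPM in WT and 2472, 2014 and 2458 CPM in CKO, with Timp1 at 55.3% to 66.6% in WT and 68.0%, 86.7% and 67.9% in CKO. The inhibitor sum was thus separated between genotypes in each library, while the protease sum of CKO 2 lay within WT. The ratio of Mmp13 to Timp1 reads was 0.857, 0.836 and 1.57 in WT and 1.28, 0.216 and 1.38 in CKO, with overlapping genotypes. That of Mmp13 to Mmp2 reads was 1.10, 1.26 and 3.67 in WT and 13.4, 3.33 and 14.5 in CKO, also overlapping. Neither ratio was planned.

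Likeness of pattern was measured as the root mean square difference of log2(CPM + 1), centred on each gene's own mean, over the 6 libraries and against 6826 genes whose mean reached 10 CPM. Nearest to Mmp13 were Sfrp4, a secreted Wnt antagonist (0.252), Cyp1b1 (0.403), Tnfrsf11b, the decoy receptor osteoprotegerin that restrains osteoclast formation (0.428), Slpi, a secreted serine protease inhibitor (0.433), and Serpinb1a (0.450). Tnfrsf11b had 37.7, 43.5 and 90.4 CPM in WT and 611, 61.4 and 673 CPM in CKO, with CKO 2 again within the WT range. Nearest to Timp1 were the metallothionein gene Mt2 (0.174), Il1rl1, a receptor for interleukin 33 (0.182), Anxa8 (0.207), S100a6 (0.214) and Gdf10 (0.229), in each of which no CKO library overlapped WT. Mmp9 is too low for its neighbours, Bcl6, Cdc5l, Rras, Inpp5b and Ptges (0.394 to 0.475), to be read as a pattern.

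The neighbours of Timp3 and Mmp3 were looked up after their values were seen. Those of Timp3 were Gpx1, Gja1, Map2k5, Dglucy and Ephx1 (0.245 to 0.283), which like Timp3 were lower in CKO 2 than in CKO 1 and 3 and stayed above WT. Those of Mmp3 were farther away: Pgp (0.471), the platelet factor 4 gene Pf4 (0.510), the muscle regulator Myog (0.664), the chemokine gene Cxcl5 (0.750) and 0610012G03Rik (0.759). Pf4 had 2, 4 and 24 reads in WT and 9, 75 and 9 reads in CKO, and Cxcl5 had 8, 20 and 116 against 35, 109 and 29. These genes were chosen for their pattern, which is therefore a description without a test, and nothing is implied about shared control.

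**Figure D3:**
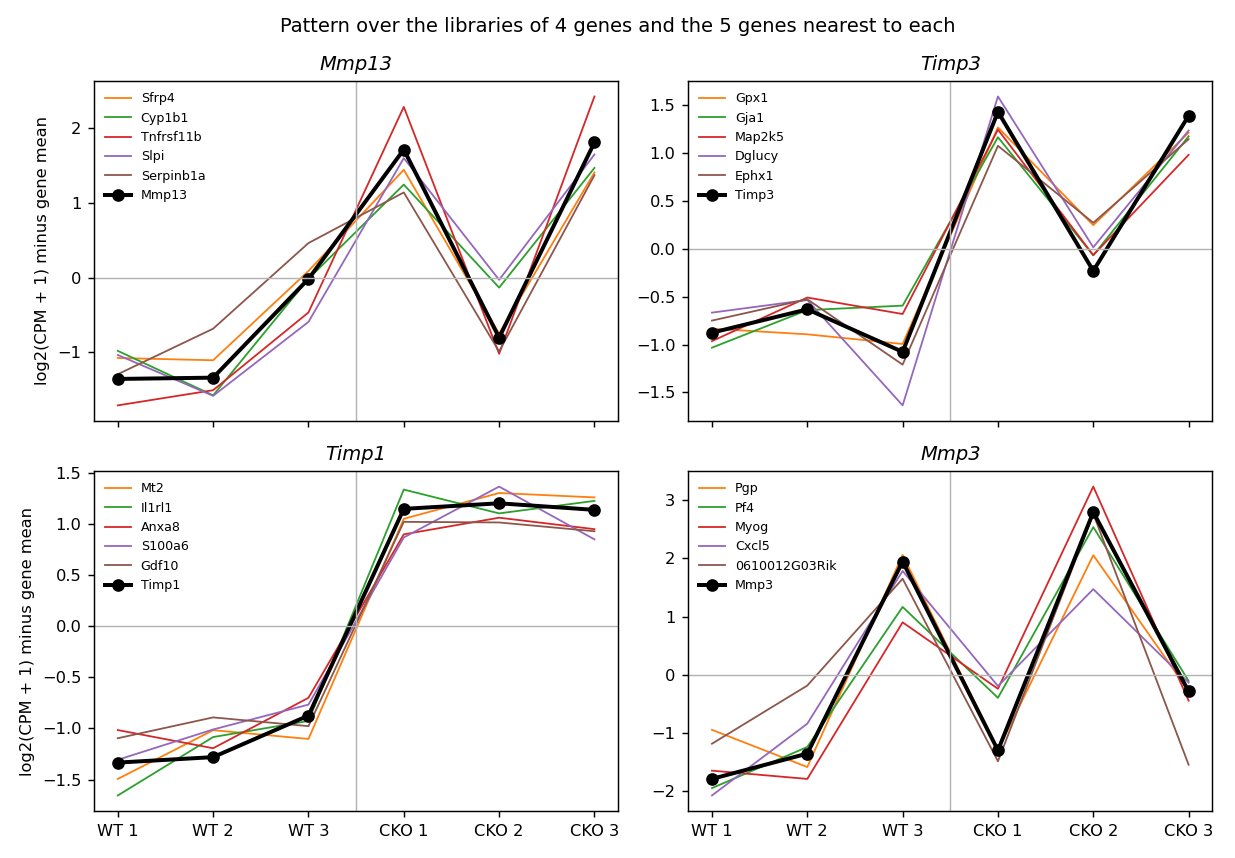
log2(CPM + 1) minus each gene's mean (vertical axes) in the 6 libraries (horizontal axes) for Mmp13, Timp3, Timp1 and Mmp3 in black and the 5 nearest genes of each in colour. Timp1 is level within each genotype, Mmp13 and Timp3 dip in CKO 2, and Mmp3 peaks in WT 3 and CKO 2.

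Of 18 other MMP and TIMP genes, 11 were listed and 7 could be tested. Limma called 0 of the 7 higher and 0 lower, with 2 higher and 0 lower at an unadjusted p under 0.05. Among all genes tested 3.18% were called higher and 2.6% lower, so 0 of 7 is too few to differ from that share. edgeR tested 2 of the 7, Mmp11 and Mmp23, and called neither, and DESeq2 gave an adjusted p to 3, Mmp11, Mmp12 and Mmp23, and called none of them. The median log2 fold change of the 7 was -0.17, against 0.013 over all genes tested. Both genes with an unadjusted p under 0.05 met the criterion of the study, by which 5.3% of all genes tested were higher. Mmp11, stromelysin 3, had 10.9, 10.5 and 4.22 CPM in WT and 27.5, 10.8 and 33.8 CPM in CKO, with CKO 2 at the level of WT 1 and WT 2. Its log2 fold change was 1.35 (limma's adjusted p = 0.126), and without CKO 2 it was 1.82 (limma's adjusted p = 0.0170). Mmp10, stromelysin 2, a gene of the chromosome 9 cluster, had no read in any WT library and 4, 5 and 1 reads in CKO 1, 2 and 3 (limma's adjusted p = 0.0976). It thus passed the filter through the CKO libraries alone, the group where it was high, and its meeting the criterion is no support. With WT set at a floor of 3 reads and the few CKO reads taken as exact, CKO was 3.25-fold higher over the groups. The other cluster genes were low or not listed: Mmp8 had 6 reads in all libraries together and Mmp27 had 1, and Mmp1a, Mmp1b, Mmp7 and Mmp20 were not listed. Mmp12, a macrophage elastase, had 6, 5 and 16 reads in WT and 3, 16 and 4 reads in CKO, so that WT 3 and CKO 2 were high in it as they were in Mmp3, a likeness seen after the values were known. A near-identical stretch of Mmp12 was found in 20 other annotated genes, so its reads are uncertain.

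Of 13 genes whose products activate, bind or clear MMPs, 12 were listed and 11 tested, and 4 of the 11 were higher in CKO, where 3.18% of all genes tested were. Their median log2 fold change was 0.41, against 0.013 over all genes tested. The list was chosen with earlier results of these data known, so its counts are a description and not a test. Limma called 0 of them lower, with 2 lower at an unadjusted p under 0.05, while edgeR, which tested 7 of them, called 1 lower and DESeq2, which gave Plat and Plau no adjusted p, called 0. The plasminogen activator system, whose product plasmin can activate MMP precursors, held 2 of the 4, a receptor and an inhibitor. Whether that system was more or less active was not tested. Plaur, the receptor of urokinase, had 27.5, 19.5 and 41.4 CPM in WT and 135, 208 and 139.5 CPM in CKO (log2 difference 2.44, limma's adjusted p = 0.00161), highest in CKO 2. Serpine2, the gene of the serine protease inhibitor protease nexin 1, rose from 969 ± 265 CPM (SD, n = 3) to 2123 ± 586 CPM, for a log2 difference of 1.13 (limma's adjusted p = 0.0306). Its call was lost without WT 1, WT 2, WT 3, CKO 1 or CKO 3, with limma's adjusted p between 0.0631 and 0.128.

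The other 2 genes called higher were Cd44, a hyaluronan receptor that can hold Mmp9 at the cell surface, and Lcn2, whose secreted product binds Mmp9. Cd44 had 15.9, 13.5 and 13.5 CPM in WT and 39.9, 39.0 and 35.5 CPM in CKO (log2 difference 1.35, limma's adjusted p = 0.00936). Without WT 2 its adjusted p was 0.0501 and without CKO 1 it was 0.0526 in limma, both just above the threshold of 0.05. Lcn2 had 61.6, 87.8 and 92.1 CPM in WT and 234, 165 and 214 CPM in CKO (log2 difference 1.34, limma's adjusted p = 0.00619), and was called in 14 of 14 alternative fits, as was Plaur. Plat, tissue plasminogen activator, had 2, 1 and 5 reads in WT and 12, 9 and 14 in CKO and met the criterion of the study but not the adjusted threshold (limma's adjusted p = 0.0627). It passed that threshold without CKO 2 (0.0465) and without WT 3 (0.0303).

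In the other direction, A2m, the gene of a broad protease inhibitor that traps MMPs, and Pcsk5, a proprotein convertase gene, met the criterion of the study. A2m had 10.9, 16.5 and 20.3 CPM in WT and 6.19, 6.50 and 4.33 CPM in CKO (log2 difference -1.31, limma's adjusted p = 0.0550). Without CKO 2 limma's adjusted p was 0.0391, and edgeR's quasi-likelihood test gave an adjusted p = 0.0354. Pcsk5 had 12, 7 and 17 reads in WT and 4, 5 and 4 in CKO, with its log2 fold change at -1.20 (limma's adjusted p = 0.134). The other 4 tested genes, Plau (urokinase itself), Bsg, Lrp1 and the convertase gene Furin, had log2 fold changes between -0.60 and 0.41 and did not pass either threshold, and Pcsk6 was below the filter.

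**Figure D4:**
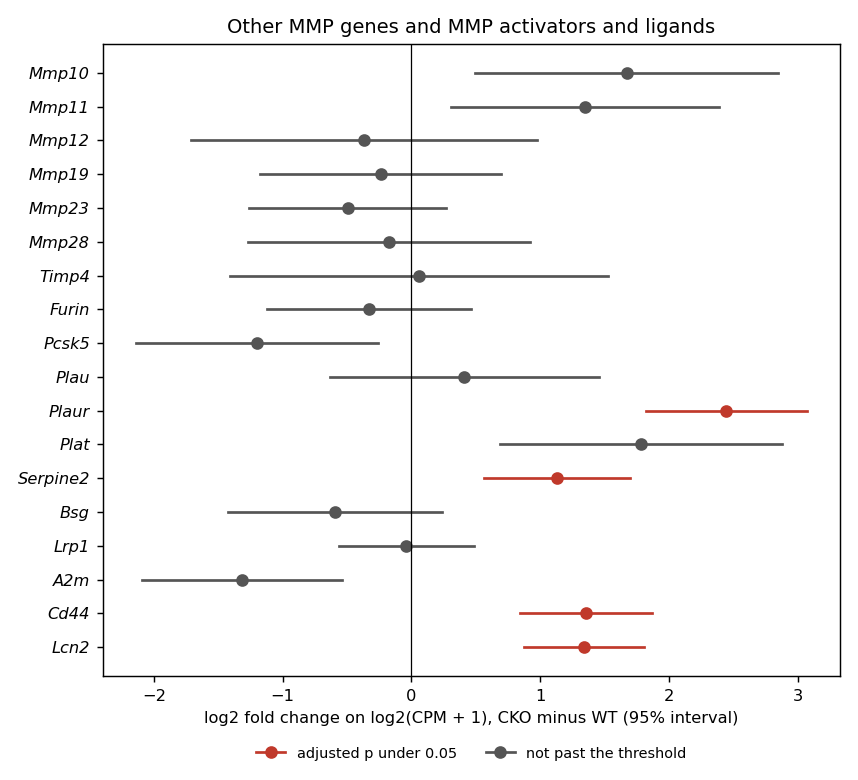
Log2 fold change on log2(CPM + 1), CKO minus WT (horizontal axis), with 95% intervals from limma, for the tested genes of the 2 further lists. Red marks adjusted p under 0.05: Plaur, Serpine2, Cd44 and Lcn2, all higher in CKO, while 7 other MMP and TIMP genes did not pass.

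**Figure D5:**
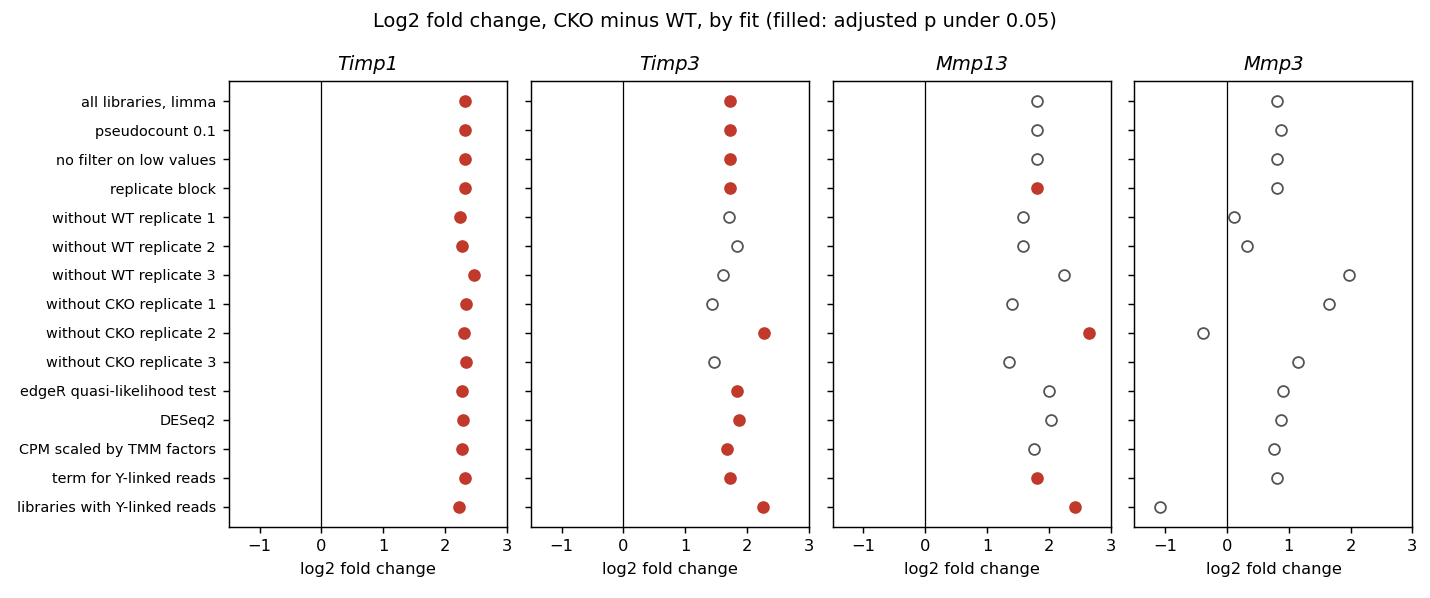
Log2 fold change of Timp1, Timp3, Mmp13 and Mmp3 (horizontal axes) in each fit (rows), with filled red points where the adjusted p was under 0.05. Timp1 stays between 2.22 and 2.47 and is called throughout, Mmp13 ranges from 1.36 to 2.66 and is called in 4 of 14 alternatives, and Mmp3 changes sign.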

How the data were processed

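The authors deposited CPM per gene and library, from reads processed, per the submitters' processing notes, with cutadapt (version 2.5), HISAT2 and featureCounts (version 1.6.3). The genome build, annotation and strand setting were not given in the sources used here. Each library summed to 1000000 CPM, and 100% of values were whole multiples of 1 read (tolerance 0.001 reads), so reads were recovered. With limma (version 3.58.1, R 4.3.3), log2(CPM + 1) was fitted on genotype without covariates for the 12155 genes whose mean reached 1 CPM, with an intensity trend in the prior variance and p-values adjusted by Benjamini-Hochberg. A fold change on this scale understates that of low genes. On recovered reads, edgeR's quasi-likelihood test (version 4.0.16) called 374 genes higher and 363 lower of 7704, and DESeq2 (version 1.42.0) called 344 and 305, against 387 and 316 with limma. The fits were tested on simulated data with planted changes and the same dispersion for every gene. No simulated library was set apart, so this does not show how the fits handle libraries such as CKO 2 and WT 3. Positions and exon lengths came from GENCODE M21 (GRCm38) by gene identifier, and near-identical copies from BLAST (version 2.17.0). Named genes were all members, list genes past either threshold, marker genes, synapsin and Y-linked genes, and the 5 nearest genes by pattern of Mmp13, Timp1 and Mmp9. The members and lists were chosen with earlier results of these data known. A gene of the list of activating and binding genes is not reported here. Floors and counts of reads cover counting error only. Alternatives were another pseudocount, no filter, a replicate block, TMM scaling, leaving out each library and, added after seeing the data, a term for Y-linked reads and a fit to the libraries that hold them.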

Additional observations from a re-analysis of the deposited data

How the results depend on the processing

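Over 14 alternative fits Timp1 was called in 14, Timp3 in 9 and Mmp13 in 4. Mmp2, Mmp14 and Mmp16 kept their direction in each and were called in none. Leaving out single libraries gave 123 to 692 genes called higher and 79 to 606 lower, against 387 and 316 with all of them, and 1 to 3 members higher. The largest counts came without CKO 2, and without any other library the members called were Timp1 alone. The fold and unadjusted p criterion of the study passed 644 genes higher and 620 lower.

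Same-numbered libraries did not deviate together (correlations 0.0378, -0.131 and -0.103 over 12155 genes), so the numbers were not taken as pairs. With a replicate block 225 genes were called higher and 160 lower, and 3 members higher, Mmp13 being added (limma's adjusted p = 0.0472).

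Directions changed in 3 members that were never called. Leaving out single libraries gave log2 fold changes of -0.39 to 1.98 for Mmp3, -0.40 to 0.29 for Timp2 and -0.16 to 0.21 for Reck. Among the libraries with Y-linked reads, an alternative chosen after seeing the data, they were -1.09, 0.36 and -0.046. edgeR did not test Mmp9, and DESeq2 gave it no adjusted p. At 3 libraries a genotype and reads of Mmp9, Mmp16, Mmp14 and Reck of at most 36 per library, small differences were not detectable.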
